A study of Bos taurus with 8 samples.

Results

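Interferon response genes were followed in granulosa cells, which surround the oocyte and make estradiol in the ovarian follicle, of dairy cows that differed in the depth of their energy deficit after calving. A list of 42 such genes was looked up in the array's annotation, which held 15229 distinct gene symbols. Of the 42, 35 had a probe, 2 of them under an older name (IFI27 as ISG12(A) and DHX58 as LGP2). The other 7 (IFIT1, OAS1X, OAS1Y, BST2, IFI44L, GBP2 and DDX58) were not analysed here. Each gene was represented by its probe with the highest mean log2 scanner intensity over the 8 arrays, and no measured difference entered the choice. All 35 probes passed the filter on dim signals, and 27 were above background in both channels on all 8 arrays.

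Interferons are secreted proteins that warn cells of viruses and other threats. Their receptors act through JAK kinases, and STAT and IRF transcription factors then switch on a large set of genes at once. The products block viral replication, sense foreign nucleic acid, regulate the pathway itself and prepare peptides for display to T cells. In cattle these genes are best known from the uterus and blood cells in early pregnancy, where interferon tau from the conceptus induces them.

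All cows were Holsteins, and their dominant follicles, over 9 mm wide, were emptied by aspiration on day 60 after calving, 42 h after 1 prostaglandin injection. Group BHBH comprised 12 cows with severe negative energy balance, classed by high blood beta-hydroxybutyrate, and group BHBL comprised 12 cows with mild negative energy balance. RNA of 3 cows was pooled, so each group had 4 pools, and no value of a single cow exists. A BHBH pool and a BHBL pool shared each two-colour array, and 2 arrays with exchanged dyes were made per pool pair. The labels do not name the pools, and arrays with the same area number on the slides were read as the same pool pair. All ratios below are log2 of BHBH over BHBL in the values the authors deposited, averaged over both arrays of a pair, with n = 4 pool pairs.

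The cell type label was checked first. All 12 granulosa markers, among them FSHR, CYP19A1 and FOXL2, were above background in both channels on all 8 arrays. Markers of other cells were present too. Of 21 leukocyte markers on the array, 19 were above background in both channels on all 8 arrays, as were 9 of 14 epithelial markers and 8 of 8 theca and stroma markers. The B cell gene CD79A exceeded background on 2 (BHBH) and 3 (BHBL) of the 8 arrays, the endothelial gene PECAM1 on 1 in either group, and the epithelial gene CDH1 on 3 and 7. In pooled bulk RNA, fewer cells of a type and less RNA per cell cannot be told apart.

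Most interferon response genes had a mean ratio below 0, and no gene passed the test. Of the 35, 32 had a mean ratio under 0, against 43.9% of all 32445 features tested (one probe per gene symbol and every probe without a symbol). The median of the 35 means was -0.34, beside 0.02 for all features. The means ran from -1.33 for CXCL10 to 0.04 for IFIT2. At least 2-fold lower on average were 4 genes, GBP4, GBP5, ISG15 and CXCL10, against 0.983% of all features. At least 1.5-fold lower were 10 (2.24% of features), the further ones being IRF7, UBA7, RSAD2, XAF1, IFIH1 and IFI27. With limma and Benjamini-Hochberg adjustment over all features, 0 features were called at adjusted p under 0.05 (0% of features), and the smallest adjusted p of any feature was 0.889, a value that MX1 and IFI44 shared. At unadjusted p under 0.05, 796 features (2.45%) were lower and 903 (2.78%) were higher, and among the interferon genes 5 were lower (MX1, IFI44, GBP4, ISG15 and OAS2) and 0 higher. With the area number as a replicate block over the 8 arrays, 91 features (0.28%) were called lower and 11 (0.0339%) higher, none of them an interferon gene. The smallest adjusted p among the interferon genes in that limma fit was 0.0592, for GBP4. That fit takes 1 correlation, 0.456, between arrays of a pair for all features. Its p values draw on technical replicates, though only 4 pool pairs exist, so they may be too small.

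**Figure D1:**
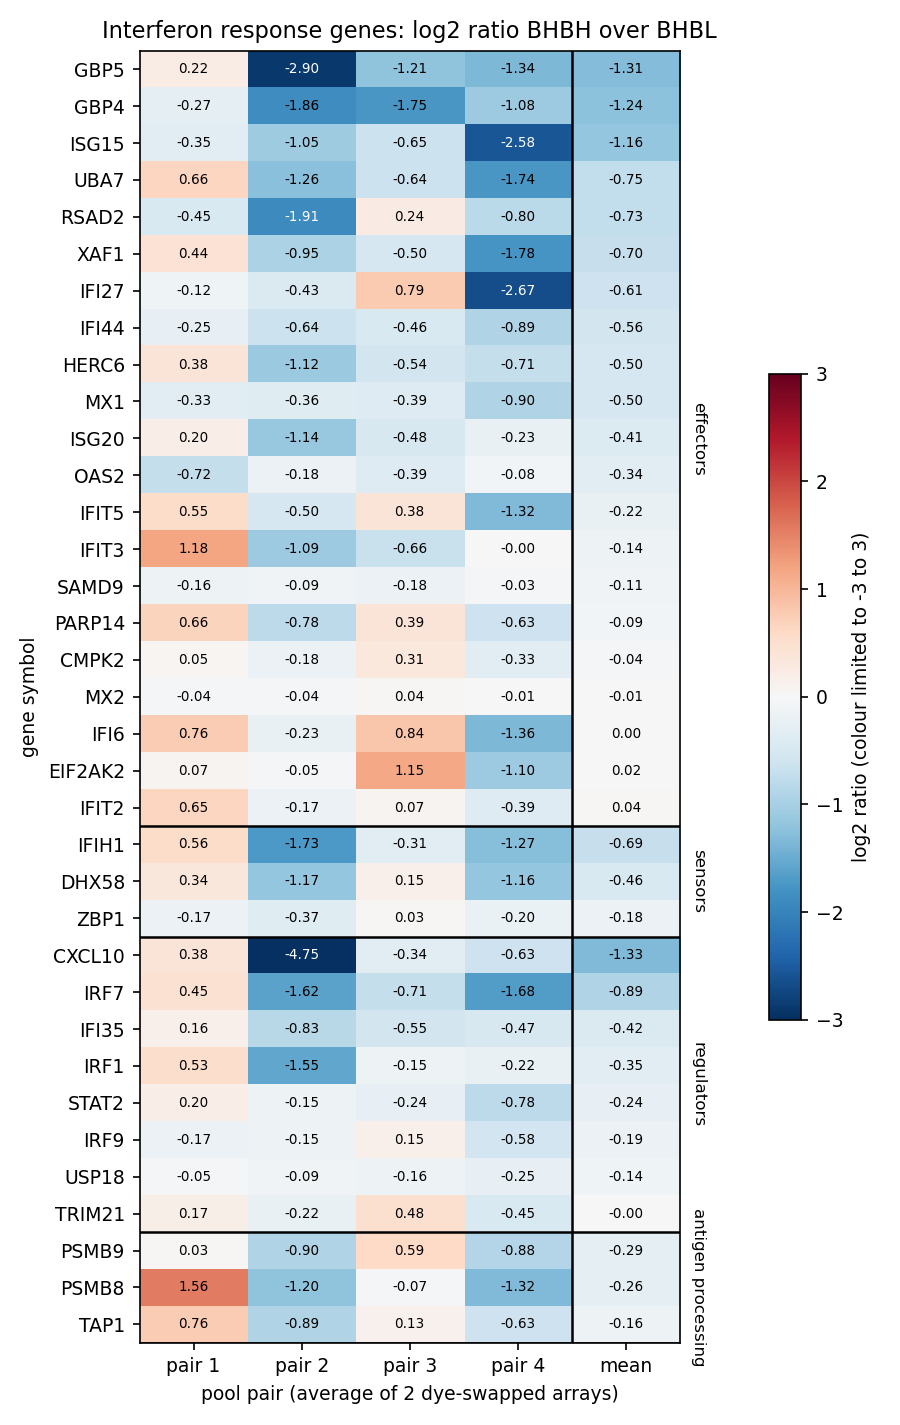
Log2 ratio BHBH over BHBL of the 35 interferon response genes (rows, grouped by role and ordered by mean) in the 4 pool pairs and on average (columns). Every gene is below 0 in pairs 2 and 4, and 23 genes are above 0 in pair 1; colours are limited to -3 and 3, and each cell prints its value.

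The pool pairs differed from one another, and the interferon genes did so together. The median ratio of the 35 genes was 0.20 in pair 1, -0.83 in pair 2, -0.16 in pair 3 and -0.78 in pair 4, beside medians of all features between 0.00 and 0.04. All 35 genes were below 0 in pair 2, where 45.9% of features were, and all 35 were below 0 in pair 4, where 41.7% were. Below 0 in both of these pairs were 23.9% of features. In pair 1, 12 of 35 genes were below 0 (49.3% of features), and in pair 3, 20 of 35 (47.2%). At least 2-fold lower were 14 genes in pair 2 (2.68% of features), 13 in pair 4 (3.58%), 2 in pair 3 (2.06%) and 0 in pair 1 (2.39%). In pair 1, 2 genes were at least 2-fold higher (2.66%), IFIT3 and PSMB8. The count over pairs 2 and 4 was chosen after the pair values were seen.

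**Figure D2:**
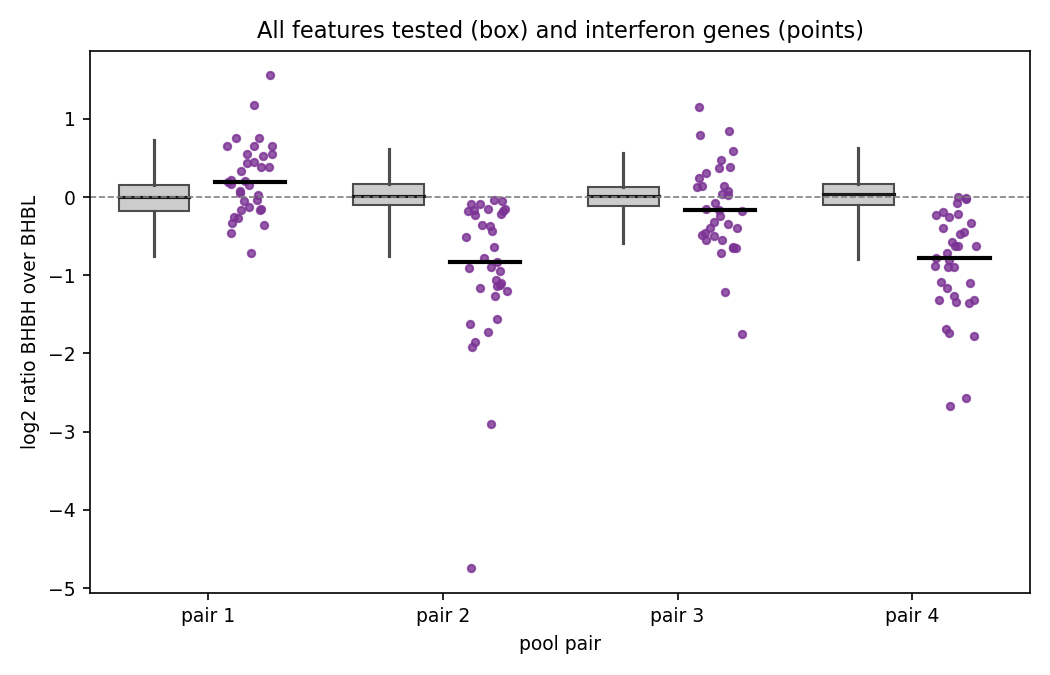
Log2 ratio BHBH over BHBL by pool pair for all 32445 features tested (box from the lower to the upper quartile with the median, whiskers to the 5th and 95th percentiles) and for the 35 interferon response genes (points, bar at the median). The points of pairs 2 and 4 all lie below 0, with medians of -0.83 and -0.78, while those of pairs 1 and 3 lie on both sides of 0.

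Both arrays of a pair gave this picture. On slide 289, with BHBH in Cy5, 34 of 35 genes were below 0 on the array of pair 2 (48.8% of features) and 35 on that of pair 4 (46.8%). On slide 288, with BHBH in Cy3, the counts were 33 (44.5% of features) and 31 (42.2%). The array medians for pair 2 were -0.78 and -0.84, and those for pair 4 were -0.78 and -0.79. The median absolute difference between the 2 arrays of a pair, over the 35 genes and 4 pairs, was 0.18, and the greatest was 0.67. As dye and slide coincide, their effects cannot be told apart.

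By their signs in the 4 pairs the genes formed 4 groups, described here without a test. Below 0 in every pair were 7 genes, MX1, ISG15, OAS2, SAMD9, IFI44, GBP4 and USP18, against 6.31% of features. None was above 0 in every pair, as 9.21% of features were. Above 0 in pair 1 and below it in the other three were 13 genes (7.81% of features), among them UBA7, GBP5, IFIH1, IRF7 and CXCL10. Above 0 in pairs 1 and 3 and below it in pairs 2 and 4 were 10 genes (6.92%), among them IFIT5, IFI6, DHX58 and TAP1. Above 0 in pair 3 alone were 5 (2.82%), namely MX2, RSAD2, ZBP1, IFI27 and IRF9. Without pair 1, 20 genes were below 0 in every remaining pair, namely the 7 (6.31% of features) and the 13 (7.81%). Without pair 3 there were 12, namely the 7 and the 5 (2.82%). Leaving out a pair can only keep or raise such a count.

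The level of each gene in each pool was read from the single channels, as log2 intensity normalised across arrays. In these levels BHBL pools 2 and 4 stood highest for most of the genes. In 17 of 35 genes the highest of the 8 pools was BHBL pool 2, and in 13 it was BHBL pool 4, together 30 of 35 genes, where 26.2% of all features had their highest level in one of these pools. BHBH pool 4 was the lowest pool for 15 of 35 genes (14.7% of features), and BHBH pool 2 for 7 (12%). With each gene centred on its mean over the 8 pools, the median of the 35 genes was 0.69 in BHBL pool 2 and 0.45 in BHBL pool 4, but -0.22 in BHBL pool 1 and -0.08 in BHBL pool 3. In BHBH pools 1 to 4 it was 0.05, -0.21, -0.27 and -0.49. The BHBL medians spanned a wider range than the BHBH medians, a difference that was not tested.

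**Figure D3:**
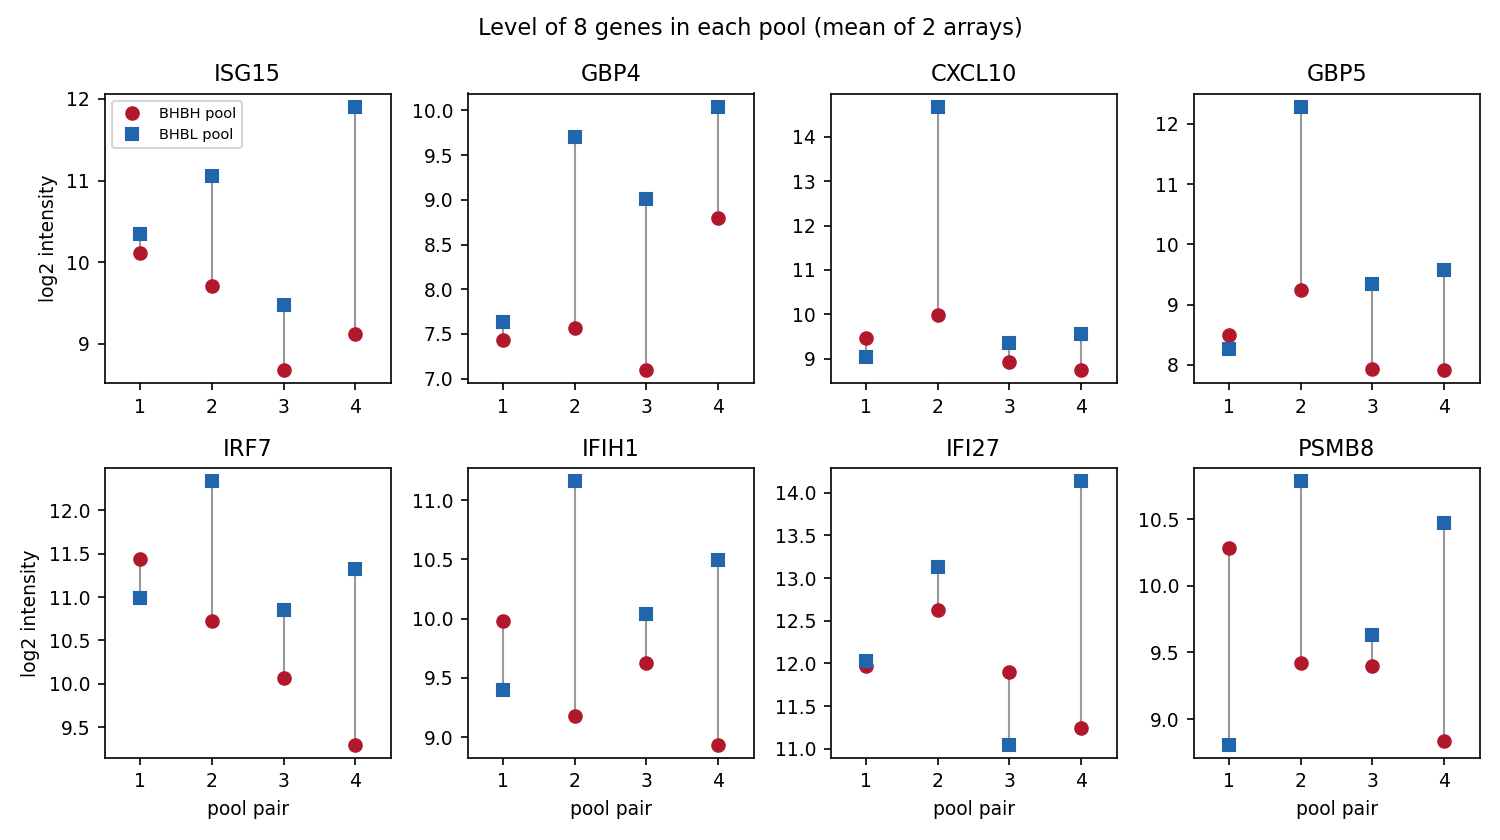
Level of 8 interferon response genes in the 4 BHBH pools (circles) and 4 BHBL pools (squares), as normalised log2 intensity averaged over 2 arrays; a line joins the 2 pools of a pair. CXCL10 and GBP5 stand highest in BHBL pool 2, at 14.67 and 12.29, and ISG15 and IFI27 in BHBL pool 4, at 11.90 and 14.14. The 8 genes were chosen after their values were seen.

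The pair with the lowest ratio was pair 2 for 15 genes and pair 4 for 17 genes, 32 of 35 in all, where 47.5% of features had their lowest ratio in one of these pairs. Of the 14 genes at least 2-fold lower in pair 2 and the 13 in pair 4, 8 were in both groups (57.1% of the former and 61.5% of the latter), namely ISG15, UBA7, GBP4, GBP5, IFIH1, DHX58, IRF7 and PSMB8. The same overlap was not counted over all features, whose ratios in pairs 2 and 4 correlated at 0.286. Whether the overlap is particular to these genes was therefore not tested. Single genes had their lowest ratio in one pair or the other. CXCL10, a chemokine that draws activated T cells and is named for its induction by interferon gamma, was at 0.38, -4.75, -0.34 and -0.63 in pairs 1 to 4, which in pair 2 is a 26.8-fold lower level in BHBH. GBP5, a guanylate-binding GTPase of cell-autonomous immunity, was at 0.22, -2.90, -1.21 and -1.34, with a mean of -1.31 ± 0.53 (SE, n = 4). Its level was 12.29 in BHBL pool 2 and between 7.91 and 9.57 in the other 7 pools. IRF1, a transcription factor induced by interferon gamma, was at -1.55 and -0.22. IFI27, a small mitochondrial protein induced by type I interferon, was lower in pair 4, with -0.43 in pair 2 and -2.67 in pair 4. So were ISG15, at -1.05 and -2.58, and EIF2AK2, the double-stranded RNA-activated kinase PKR, at -0.05 and -1.10. These genes were chosen after their values were seen, and the difference between the pairs was not tested.

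The effectors, which act on the virus or the infected cell, made up 21 of the 35 genes. Of these, 18 had a mean below 0, 6 were below 0 in every pair, and the median of the means was -0.41. MX1 (probe EMBV3_39793), a dynamin-like GTPase that traps viral nucleocapsids, had ratios of -0.33, -0.36, -0.39 and -0.90 in pairs 1 to 4. It was below 0 on 8 of 8 arrays, with a mean of -0.50 ± 0.12 (SE, n = 4) and adjusted p = 0.889. IFI44 (EMBV3_20707), an interferon-induced protein of the cytoplasm, was at -0.25, -0.64, -0.46 and -0.89. Its mean was -0.56 ± 0.12 (SE, n = 4), with a 95% interval of -0.88 to -0.24 and adjusted p = 0.889, and it too was below 0 on 8 of 8 arrays. IFI44 was the 1 interferon gene whose 4 BHBH pool levels, from 7.71 to 8.10, all lay below its 4 BHBL levels, from 8.32 to 8.81, as was so for 1.57% of features.

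GBP4 (EMBV3_34329), another guanylate-binding protein, was at -0.27, -1.86, -1.75 and -1.08. Its mean of -1.24 ± 0.31 (SE, n = 4) corresponds to a 2.36-fold lower level in BHBH, with adjusted p = 0.912. Its probe exceeded background on 6 arrays in BHBH and on all 8 in BHBL. ISG15 (EMBV3_29175), a ubiquitin-like protein that is joined to other proteins and is also secreted, was at -0.35, -1.05, -0.65 and -2.58. It was below 0 on 8 of 8 arrays, with a mean of -1.16 ± 0.41 (SE, n = 4) and adjusted p = 0.915. ISG15 levels were 10.11, 9.71, 8.68 and 9.12 in BHBH pools 1 to 4 and 10.35, 11.06, 9.47 and 11.90 in BHBL pools 1 to 4, so the groups overlapped. Without pair 4 its mean was -0.68. MX1, IFI44, GBP4 and ISG15 were the 4 genes below 0 on all 8 arrays, as 1.6% of features were.

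OAS2 (EMBV3_43519), a synthetase of the 2-5A messenger that activates RNase L, was at -0.72, -0.18, -0.39 and -0.08, with a mean of -0.34 ± 0.12 (SE, n = 4) and adjusted p = 0.915. It had its lowest ratio in pair 1, unlike all other effectors but MX2. UBA7 (-0.75 ± 0.43), the enzyme that activates ISG15, and HERC6 (-0.50 ± 0.27), which in mice joins it to its targets, were above 0 in pair 1 (0.66 and 0.38) and below it in the other pairs. RSAD2, or viperin, which makes a chain-terminating nucleotide, was at -0.45, -1.91, 0.24 and -0.80. XAF1, a pro-apoptotic partner of XIAP, was at -0.70 ± 0.39, and ISG20, an exonuclease that degrades viral RNA, at -0.41 ± 0.24. The ISG20 probe exceeded background on 4 arrays in BHBH and 5 in BHBL. IFI27 had a mean of -0.61 ± 0.61, and without pair 4 it was at 0.08. The means of IFIT2, IFIT3, IFIT5, MX2, CMPK2, EIF2AK2, SAMD9, IFI6 and PARP14 lay between -0.22 and 0.04.

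Some genes that lie next to each other had unlike ratios. In the RefSeq annotation of the ARS-UCD2.0 assembly MX1 and MX2 have 0 other coding genes between them, and MX2 (-0.01 ± 0.05) had ratios between -0.04 and 0.04 in all 4 pairs, where MX1 had -0.33 to -0.90. RSAD2 and CMPK2, a mitochondrial nucleotide kinase, are likewise adjacent. CMPK2 was at 0.05, -0.18, 0.31 and -0.33, close to 0 where RSAD2 reached -1.91. The probes of MX2 and CMPK2 were above background on all 8 arrays but dim. MX2 levels ran from 7.42 to 7.70 over the pools and CMPK2 levels from 7.18 to 7.98. Levels of PECAM1, which did not pass the filter, ran from 6.64 to 7.03. The differences between these neighbours, and the part of dim signal in them, were not tested. IFIT2 and IFIT3, members of 1 gene family, are adjacent as well and had ratios of 0.65 and 1.18 in pair 1 and -0.17 and -1.09 in pair 2.

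Of the sensors, which detect viral nucleic acid, 3 were measured, and all 3 had a mean below 0. IFIH1 (MDA5, EMBV3_05886), a helicase that detects long double-stranded RNA, was at 0.56, -1.73, -0.31 and -1.27, with a mean of -0.69 ± 0.42 (SE, n = 4) and adjusted p = 0.916. DHX58 (LGP2, EMBV3_15086), which tunes the signal of IFIH1, was at 0.34, -1.17, 0.15 and -1.16, with a mean of -0.46 ± 0.34. ZBP1 (EMBV3_23080), a sensor of Z-form nucleic acid, was at -0.17, -0.37, 0.03 and -0.20, with a mean of -0.18 ± 0.08. In all 3 genes the highest pool level was in BHBL pool 2 or BHBL pool 4. None of the 3 was below 0 in every pair, and their adjusted p lay between 0.915 and 0.92.

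All 8 regulators and signals had a mean below 0, with a median of -0.30, and 1 (USP18) was below 0 in every pair. IRF7 (EMBV3_38803), the transcription factor that amplifies the interferon response, was at 0.45, -1.62, -0.71 and -1.68. Its mean was -0.89 ± 0.41 (SE, n = 4), with adjusted p = 0.915. IRF7 levels were 11.44, 10.73, 10.06 and 9.30 in BHBH pools 1 to 4 and 10.99, 12.34, 10.85 and 11.33 in BHBL pools 1 to 4. The groups overlapped, with BHBH pool 4 the lowest and BHBL pool 2 the highest. IFI35 (EMBV3_00935), a leucine zipper protein that modulates innate signalling, was at 0.16, -0.83, -0.55 and -0.47, with a mean of -0.42 ± 0.18 and adjusted p = 0.915. IRF9 (EMBV3_38956), which gives the type I interferon complex its DNA specificity, was at -0.17, -0.15, 0.15 and -0.58, with a mean of -0.19 ± 0.13 and adjusted p = 0.916. Its partner STAT2 (-0.24 ± 0.17) was at -0.78 in pair 4 and -0.15 in pair 2.

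USP18 (EMBV3_02877), which removes ISG15 from proteins and dampens the type I receptor, was at -0.05, -0.09, -0.16 and -0.25, with a mean of -0.14 ± 0.06 and adjusted p = 0.915. IRF1 had a mean of -0.35 ± 0.36, and without pair 2 it was at 0.05. TRIM21, a cytosolic antibody receptor and ubiquitin ligase, was at -0.00 ± 0.18. CXCL10 had the mean farthest from 0 of the 35 genes, -1.33 ± 0.96, but without pair 2 it was at -0.20. Its level was 14.67 in BHBL pool 2 and between 8.75 and 9.98 in the other 7 pools.

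The antigen processing genes were 3. PSMB8 (EMBV3_39256) and PSMB9 (EMBV3_26264) encode catalytic subunits of the immunoproteasome, and TAP1 (EMBV3_09175) encodes a chain of the transporter that carries peptides to class I molecules. PSMB8 was at 1.56, -1.20, -0.07 and -1.32, PSMB9 at 0.03, -0.90, 0.59 and -0.88, and TAP1 at 0.76, -0.89, 0.13 and -0.63. Their means were -0.26 ± 0.55, -0.29 ± 0.31 and -0.16 ± 0.31 (SE, n = 4), all smaller than the spread between pairs, with adjusted p from 0.938 to 0.974. PSMB8 levels of 10.28 in BHBH pool 1 and 10.79 and 10.47 in BHBL pools 2 and 4 stood above the other 5 pools, which ran from 8.81 to 9.63.

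**Figure D4:**
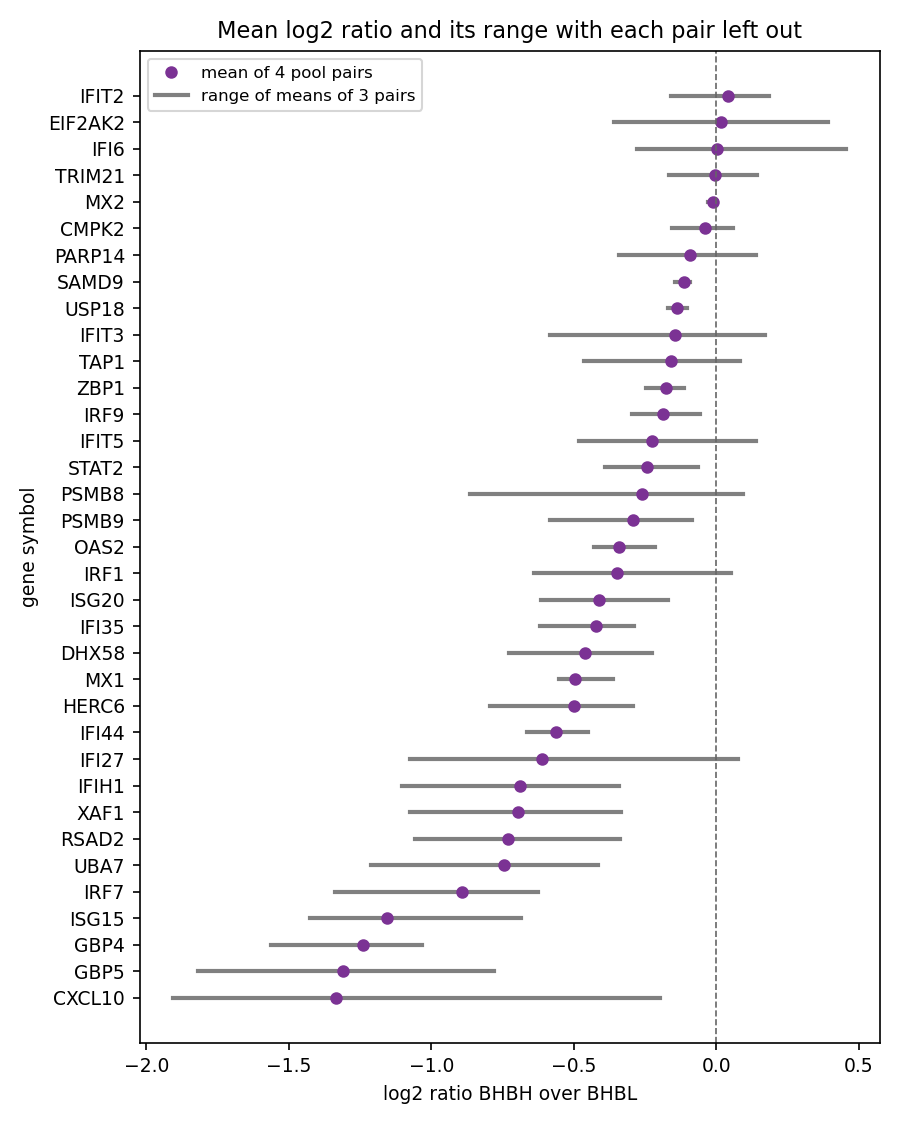
Mean log2 ratio BHBH over BHBL of the 35 interferon response genes over 4 pool pairs (points), with the range of the means when each pair is left out in turn (bars). The bar of CXCL10 runs from -1.91 to -0.20 and that of GBP4 from -1.56 to -1.03, while bars of genes near 0, such as IFI6 (-0.28 to 0.46), cross 0.

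A further probe existed for 5 of the 35 genes, and its mean was below 0 for each of the 5. ISG15 had a second probe at -0.59, -0.74, -0.27 and -1.20 in pairs 1 to 4, with a mean of -0.70, so both probes were below 0 in every pair. The second probe of IFI27 was at -0.04 against -0.61, that of XAF1 at -0.14 against -0.70, that of USP18 at -0.11 against -0.14 and that of IFIT5 at -0.06 against -0.22. The further probe of IFI27 was at 0.12, 0.04, 0.09 and -0.39 in pairs 1 to 4, so only pair 4 put its mean below 0. In pair 2 the further probes of IFI27 (0.04) and IFIT5 (0.19) lay above 0, unlike the probes used, and that of IFIT5 was above background on 2 arrays. GBP and IFIT genes belong to families of similar sequence, and whether their probes bind several members was not tested.

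The rest of the pathway was read from lists outside the 35 genes. Interferon genes themselves were near the limit of the array. IFNG, interferon gamma, exceeded background on 5 arrays in BHBH and 7 in BHBL and was at -0.28 ± 0.15 (SE, n = 4), with -0.67 in pair 2. IFNB1, interferon beta, exceeded background on 0 arrays in BHBH and 2 in BHBL and did not pass the filter. Of 6 ligand and receptor genes that passed, 3 had a mean below 0, and the receptor chains IFNGR1 and IL10RB were at 0.23 ± 0.15 and 0.26 ± 0.06, with IL10RB above 0 in every pair. Of 22 genes of signalling, 12 were below 0, with a median of -0.00. TLR3, an endosomal RNA receptor, was at -0.23 ± 0.17, its adaptor TICAM1 at -0.07 ± 0.05 and the adaptor TRAF3 at 0.11 ± 0.07.

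Most other genes that interferon induces had a mean below 0, but not all of them were below 0 in pairs 2 and 4. Of 26 such genes 20 had a mean below 0 (43.9% of features), with a median of -0.14 and pair medians of 0.10, -0.34, 0.03 and -0.98. In pair 2, 17 of the 26 were below 0 (45.9% of features), and in pair 4, 21 were (41.7%). IFITM3, a membrane protein that blocks viral entry, was at 0.34, -2.08, -1.13 and -2.09, with a mean of -1.24 ± 0.48. GBP6 was at -0.87 ± 0.23 and below 0 in every pair, and DTX3L, a ubiquitin ligase, at -0.52 ± 0.20. Of 15 further antigen presentation genes 11 had a mean below 0, with a median of -0.27. PSME1 and PSME2, the subunits of the interferon-inducible proteasome activator, were below 0 in every pair, at -0.46 ± 0.07 and -0.40 ± 0.08. TAPBPL was at 0.22 ± 0.13. At unadjusted p under 0.05, GBP6, PSME1 and PSME2 were lower and IL10RB was higher, which is 4.35% and 1.45% of the 69 genes tested, near the 2.45% and 2.78% of all features, and 0 genes of these 4 lists passed at adjusted p under 0.05.

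Markers of other cells also differed between these pools. Leukocyte markers (21 genes) had pair medians of 0.57, 0.40, 0.68 and -1.72, and 19 of 21 were below 0 in pair 4 and 8 of 21 in pair 2. In pair 2 S100A8 (-3.34), S100A9 (-3.34), the B cell gene MS4A1 (-2.83) and PTPRC (-0.80), the pan-leukocyte CD45, were among the 8 below 0. Most of the 21 were above 0 there, among them CD163 (2.52), CD14 (1.51), CSF1R (1.31) and ITGAM (1.03). S100A8 was at -0.77, -3.34, -4.49 and -0.82 in pairs 1 to 4, while the leukocyte median was above 0 in pairs 1 to 3. S100A8 and S100A9 were below 0 on all 8 arrays, with means of -2.35 and -2.26, and MS4A1 was at 0.33 in pair 4. The centred median of the 21 leukocyte markers was 0.96 in BHBL pool 4 and 0.02 in BHBL pool 2. Log2 of their summed level ran from 13.87 to 16.23 in BHBH and from 14.62 to 16.48 in BHBL. Epithelial markers (14 genes, all with a mean below 0) had pair medians of -0.07, -2.37, -1.79 and -0.86. Their centred median was 1.53 in BHBL pool 2 and 0.23 in BHBL pool 4. KRT8 and KRT19 were saturated on 1 and 2 arrays. Log2 of the summed level of the 12 never saturated markers ran from 11.55 to 13.19 in BHBH and from 13.45 to 15.98 in BHBL. With all 14 it ran from 12.88 to 16.76 in BHBH and from 15.63 to 17.44 in BHBL, so the groups overlapped. In pair 1, 9 of the 14 were below 0, but KRT8 (3.62) and KRT18 (3.67) were above it. Theca and stroma markers (8 genes) had pair medians of 1.84, -0.77, -2.03 and -1.31. Red cell markers (5 genes) had pair medians of 0.39, -0.87, -0.72 and 0.23. Their centred median was highest in BHBL pool 2, at 0.92, and was -0.39 in BHBL pool 4. The centred median of granulosa markers (12 genes) was highest at 0.29 in BHBL pool 1 and lowest at -0.45 in BHBL pool 4 and -0.43 in BHBL pool 2. INHA and INHBA were saturated on all 8 arrays, and log2 of the summed level of the other 10 ran from 15.44 to 16.58 in BHBH and from 15.30 to 16.45 in BHBL. That of the interferon genes, none of them saturated, ran from 14.63 to 15.47 in BHBH and from 14.99 to 16.46 in BHBL. The part of these cells in the interferon ratios was not tested.

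**Figure D5:**
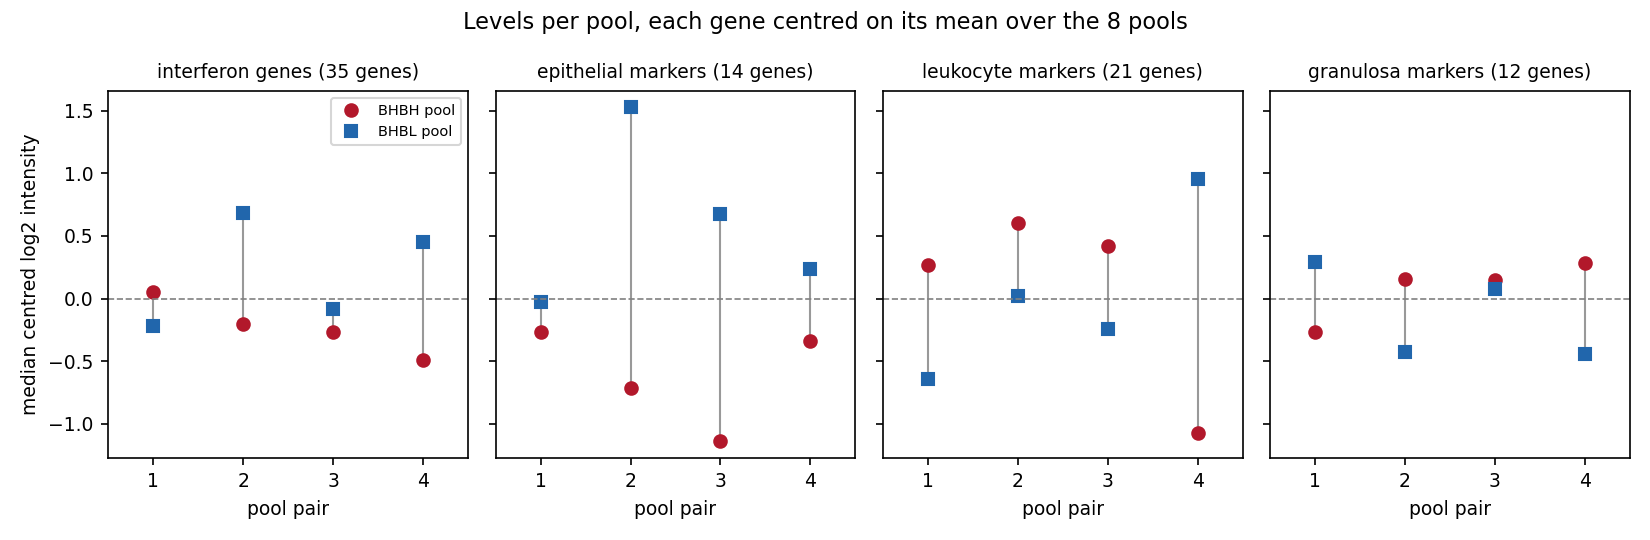
Median level per pool of the interferon response genes and of epithelial, leukocyte and granulosa markers, each gene centred on its mean over the 8 pools (log2 intensity), for BHBH (circles) and BHBL pools (squares). Interferon genes stand highest in BHBL pools 2 (0.69) and 4 (0.45), epithelial markers in BHBL pool 2 (1.53) and leukocyte markers in BHBL pool 4 (0.96).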

How the data were processed

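RNA of each pool was linearly amplified with a RiboAmp kit and 825 ng were labelled, per the labels' protocols. The deposited scanner files give median foreground and local background intensity per spot for both dyes, per the file headers. The deposited whole-series table holds log2 ratios. Limma is listed in the submitters' processing notes, but its background correction and normalisation are unstated there. Set against ratios from the scanner files turned by the labelled dyes, the deposited values had the direction BHBH over BHBL on each of the 8 arrays (r = 0.941 to 0.960 across probes, slope 0.935 to 1.10), with medians from -0.0142 to 0.0396, so no sign was turned.

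Each array held 43794 probes, of which 21790 carried 1 symbol, none several and 22004 none. A probe was kept if its foreground exceeded the mean plus 2 SD of 153 negative controls on 4 or more of the 8 arrays, in the one channel or the other. This left 37884 probes and, with 1 probe per symbol, 32445 features, 14081 of them named. The average of both dye-swapped arrays, in which a shared effect of dye and slide cancels, was tested against 0 with limma 3.58.1 (lmFit, eBayes) in R 4.3.3, and p was adjusted by Benjamini-Hochberg over all features. Errors are limma's standard errors. Ratios of arrays with the same area number correlated at 0.650 to 0.801 and those of different areas at -0.463 to 0.285. After each slide's mean was removed, these ranges were 0.883 to 0.927 and -0.559 to -0.0362. Removing the mean by itself pushes correlations between different areas below 0. The design text names dye-swapped technical replicates of each pool. Levels per pool are log2 intensities after normexp (offset 50), loess and Aquantile, averaged over 2 arrays. The number of pool pairs, 4, limits the precision.

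The genes, the lists and the role groups were chosen with earlier results of these data known. Values in full are given for the 4 genes of each role with the smallest unadjusted p and for ISG15, MX1 and IFI44, and for up to 3 genes of each other pathway list, and further genes were named after their values were seen. The fit was tested on simulated data. Alternatives covered the source, background correction and normalisation of the ratios, the filter, the mean of all probes, the replicate block, each slide alone, the variance model and each pair left out.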

Additional observations from a re-analysis of the deposited data

Results flagged for a closer look

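In MX1 the ratio of 1 pool pair lay far from the other 3, at -0.898 in pair 4 against -0.393 to -0.333. It was 1 of 40 groups of 4 pool pairs looked at (35 genes and 5 medians of gene groups), where chance gives about 1 in 20.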

How the results depend on the processing

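All 35 interferon genes stayed below 0 in pairs 2 and 4 with ratios from scanner intensities under normexp and loess or without background correction, 34 did with median centring and with slide 289 alone, and 30 with slide 288 alone. Genes with a mean below 0 numbered 25 (without pair 2) to 35 (normexp and loess) over all alternatives, and their median stayed below 0, from -0.585 without pair 1 to -0.191 without pair 4. Features called numbered 102 with the area number as a replicate block, 48 with a further term for dye and slide, and 269 with the 8 arrays as separate ratios and no replicate block, a fit that counts technical replicates as samples and in which MX1, IFI44 and GBP4 were called. They numbered 0 in every other fit, and all 3 fits that called features draw on 8 arrays of only 4 pool pairs. Interferon genes below 0 at unadjusted p under 0.05 numbered 5, where 2.45% of features were lower. They numbered 8 with median centring, 14, 13 and 15 in the 3 fits of 8 arrays, and 3 with a variance trend. With 1 pair left out they numbered from 3 (without pair 2) to 11 (without pair 1). Interferon genes below 0 in every pair numbered 4 on slide 288 alone. With 1 pair left out they numbered 7 to 20 (without pair 1), a count that leaving out a pair can only keep or raise. Shares of all features for the counts under the alternatives are not given here. Signs turned for 15 genes, IFI27, IRF1 and PSMB8 among them when 1 pair was left out. With normexp and loess IFIT2 was at -0.00798, EIF2AK2 at -0.0600 and IFI6 at -0.113. Without background correction these were at -0.0371, -0.0483 and -0.112, and CMPK2 at 0.0045. With median centring EIF2AK2 was at -0.115 and IFI6 at -0.136. On slide 289 IFIT2 was at -0.00373 and CMPK2 at 0.0416. On slide 288 MX2 was at 0.0703, EIF2AK2 at -0.177, ZBP1 at 0.0362, IFI6 at -0.0567, PARP14 at 0.00651, USP18 at 0.0258 and TRIM21 at 0.0104. With 1 pair left out the means ran from -0.16 to 0.187 for IFIT2, -0.278 to 0.456 for IFI6, -0.585 to 0.173 for IFIT3, -0.482 to 0.139 for IFIT5, -0.153 to 0.0608 for CMPK2, -0.359 to 0.391 for EIF2AK2, -1.08 to 0.0776 for IFI27, -0.34 to 0.139 for PARP14, -0.641 to 0.052 for IRF1, -0.165 to 0.145 for TRIM21, -0.864 to 0.095 for PSMB8 and -0.465 to 0.0852 for TAP1. The other 20 genes kept their sign under each alternative in which they were tested (ISG20 was not tested under the filter for all 8 arrays). The cause was not tested. Signal over background limits ISG20 most, with 4 arrays above background in BHBH.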
